A study of Mus musculus with 8 samples.

Results

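A set of 52 genes of DNA replication and mitosis was followed in FAP+ stromal cells of 3 mouse tissues and in cultured FAP-negative fibroblasts. The members are rows of the deposited gene table listed by symbol for their known roles, 52 of 22558 genes. The rule itself uses no measured value, but the list was chosen with earlier results of these data known. They fall into 10 classes by role, of which 4 serve the G1/S transition and S phase (21 genes) and 6 serve mitosis (31 genes). The tables write symbols in lower case, so that mki67, mcm6 and plk1 are the genes Mki67, Mcm6 and Plk1 here. All 52 passed the filter on low counts over the 8 libraries. Fibroblast activation protein (FAP) is a membrane serine protease of stromal cells. FAP+ cells were obtained by fluorescence-activated sorting from dissociated pancreas, skeletal muscle and visceral adipose tissue, and the labels name the first of these pancreatic stellate cells. The comparison group was made of mouse embryonic fibroblasts (MEFs) that lacked FAP, which were sorted, cultured for 3 passages and sorted again. Each group had 2 libraries from duplicate experiments, so the p-values measure the spread between these experiments. Strain, age and genotype of the animals are not given in the sources used here. Every comparison with MEFs is also one of cells taken from tissue with cells from culture, and of FAP+ with FAP-negative cells, and these cannot be told apart.

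Most replication and mitosis genes are transcribed only in a part of the cell cycle, so their RNA is abundant in dividing cultures and scarce in resting tissue. E2F transcription factors drive the genes of S phase, and a complex of B-Myb, FoxM1 and the MuvB core drives the mitotic genes later. In resting cells the same MuvB core joins pocket proteins and repressor E2Fs in the DREAM complex, which binds E2F sites and the cell cycle genes homology region (CHR) near the start of mitotic genes. In bulk RNA, fewer cycling cells and less of these RNAs per cell cannot be told apart.

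The libraries held 15516319 to 27759399 estimated fragments. In the FAP+ libraries 10.9% to 17.8% of them came from the single gene Gsn, which encodes the actin-severing protein gelsolin, against 2.2% and 2.3% for the top gene of the MEF libraries. The scaling factors (TMM, which set library sizes by the bulk of genes) ran from 0.516 to 1.31, and the first adipose library, at 0.516, stood apart from the second at 0.889. Fap was listed at 6.09 to 46.2 FPKM (fragments scaled to library size and transcript length) in the FAP+ libraries and at 1.61 and 0.33 FPKM in MEFs. Dcn, the collagen-binding proteoglycan decorin of fibroblasts, had 2753 to 6533 FPKM in the FAP+ libraries against 21.2 and 10.5 FPKM in MEFs, and the 7 fibroblast markers summed to 5347 to 9088 FPKM against 1491 and 1126 FPKM. Of other cell types, 5 leukocyte markers summed to 1.56 to 8.57 FPKM in the FAP+ libraries and 2.93 and 3.17 FPKM in MEFs, and 4 T and B cell markers to at most 0.564 FPKM and 0 in MEFs. The 4 endothelial markers summed to 23.0 and 43.5 FPKM in adipose, 2.20 and 9.49 FPKM in muscle and 1.45 and 1.59 FPKM in pancreas. In pancreas libraries 1 and 2, 4 epithelial markers summed to 165 and 54.9 FPKM and 6 acinar markers to 96.8 and 51.3 FPKM. The part of these other cells in the results was not tested.

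Replication and mitosis genes were far lower in the FAP+ cells of each tissue than in MEFs. Of the 52 genes, 51 were lower in adipose, where 23.2% of all genes tested were lower, 51 in muscle, where 20.0% of all genes were, and 51 in pancreas, where 19.4% were (edgeR's quasi-likelihood test over 14847 genes, Benjamini-Hochberg adjusted p below 0.05). In adipose, muscle and pancreas 26.9%, 23.7% and 23.1% of all genes were higher, but 0 members were, and the log2 differences of all 52 lay below 0, though that of E2f1 in muscle was 0.02 with upper quartile factors. The median log2 difference of the members was -3.83 in adipose, -4.15 in muscle and -4.46 in pancreas, which is 14.2-, 17.7- and 22.0-fold lower, while the median of all genes was 0.05, 0.03 and 0.02. The 3 comparisons share the MEF libraries, so they are not independent of one another. In all 3 tissues 51 members were lower, against 2006 of all genes (13.5%). The exception in each tissue was E2f1. Mitotic genes lay further from MEFs than G1/S and S-phase genes, with medians of -4.30, -4.66 and -4.81 against -3.32, -3.56 and -3.66 in adipose, muscle and pancreas. The difference between these medians was not tested.

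**Figure D1:**
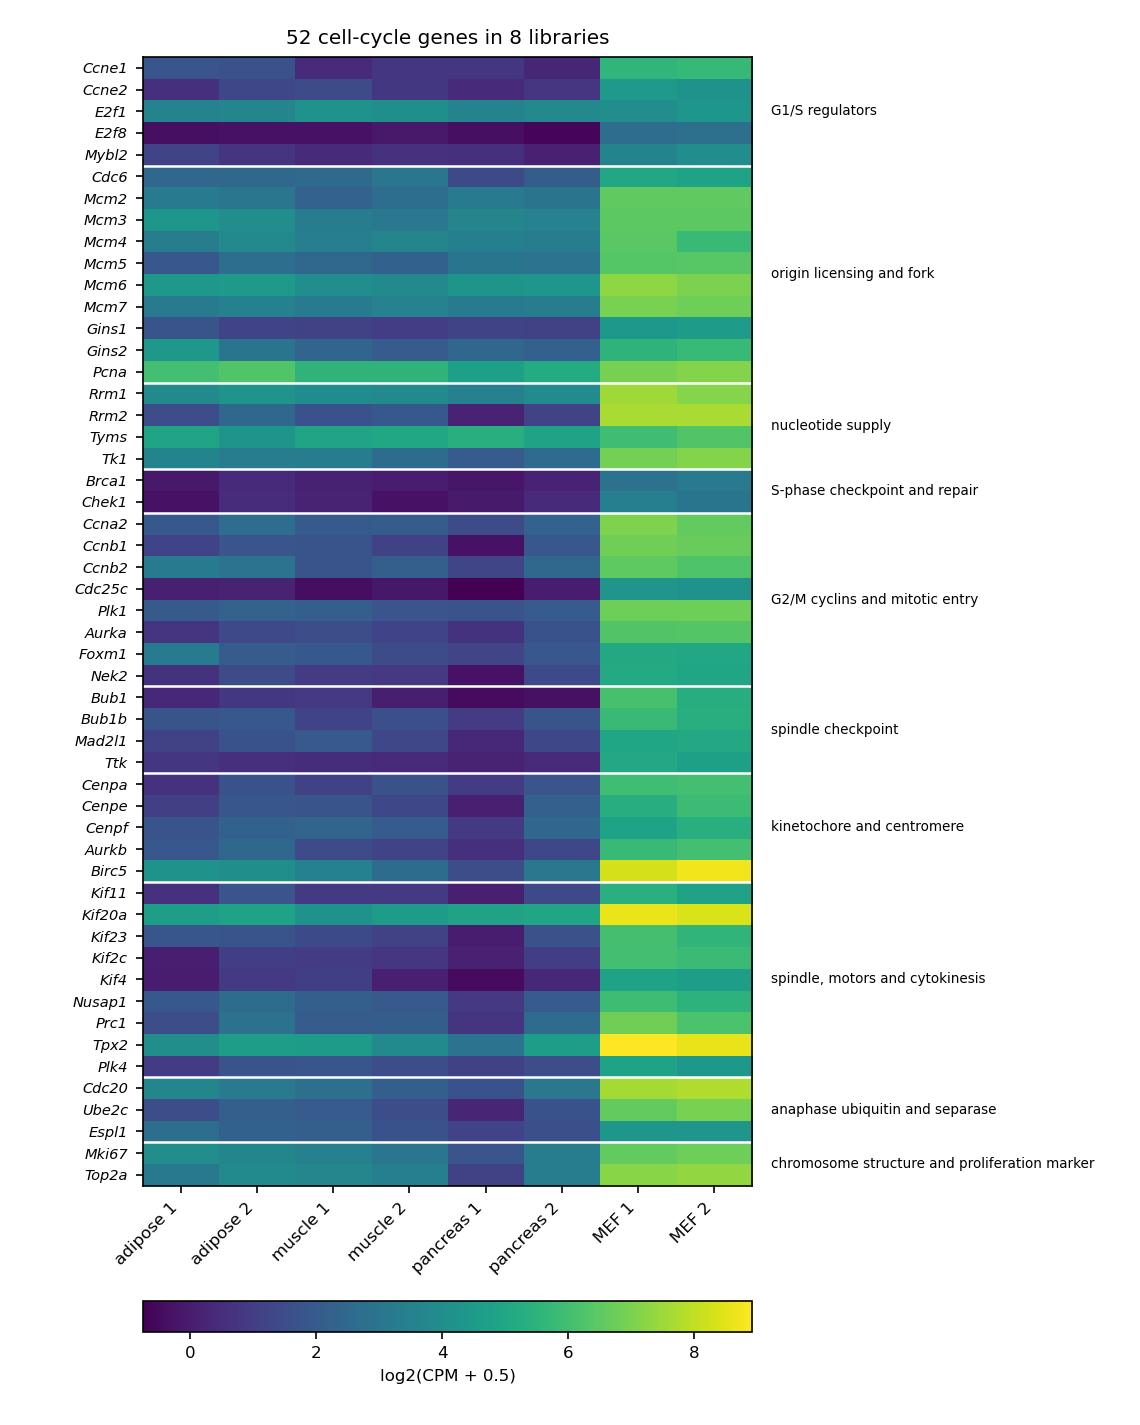
Level of each of the 52 genes (rows, grouped by role) in each of the 8 libraries (columns), as log2 of counts scaled to a common library size (CPM) plus 0.5. The 2 MEF columns are brighter than the 6 FAP+ columns for all genes but E2f1, whose row is nearly even, and the first pancreas library is the darkest column over most mitotic rows.

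Promoter sequences are shown because the members moved together against MEFs while the 2 groups of genes differ in the elements they carry. RefSeq windows of 300 bases (250 before and 50 after the annotated start, mouse build GRCm38.p6, the first window listed for a gene) were found for 42 of the 52 genes. Those without an entry were Kif20a, Foxm1, Ccne2, Tpx2, Aurkb, Gins1, Mcm4, Ccna2, Gins2 and Cdc25c. Both strands were searched. A CHR was read as TTTGAA, or as the variant with a central CpG, TTCGAA. The CCAAT box, which NF-Y binds, was searched by those letters. An E2F site was read as TTCCCGC, with the forms TTCGCGC and, with a G in the third place, TTGCCGC besides the form TTGGCGC. The 6 windows below were chosen after the matches were seen: 3 mitotic genes with a CHR beside the start, 2 helicase genes with E2F matches, and Pcna with neither. Capitals mark matches to any of these motifs, and each sequence runs 5′ to 3′ on the strand of its gene. Their positions are chr2:127831810-127832109 on the minus strand for Bub1, chr7:122159185-122159484 on the plus strand for Plk1, chr4:118437294-118437593 on the minus strand for Cdc20, chr1:20820263-20820562 on the minus strand for Mcm3, chr1:128359656-128359955 on the minus strand for Mcm6 and chr2:132253131-132253430 on the minus strand for Pcna.
Bub1: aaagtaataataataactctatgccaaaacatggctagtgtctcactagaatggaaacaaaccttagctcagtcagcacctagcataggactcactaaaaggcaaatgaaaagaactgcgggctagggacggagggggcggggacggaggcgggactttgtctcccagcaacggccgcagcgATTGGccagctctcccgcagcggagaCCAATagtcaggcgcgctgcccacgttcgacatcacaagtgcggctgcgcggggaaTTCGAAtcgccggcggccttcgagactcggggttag
Plk1: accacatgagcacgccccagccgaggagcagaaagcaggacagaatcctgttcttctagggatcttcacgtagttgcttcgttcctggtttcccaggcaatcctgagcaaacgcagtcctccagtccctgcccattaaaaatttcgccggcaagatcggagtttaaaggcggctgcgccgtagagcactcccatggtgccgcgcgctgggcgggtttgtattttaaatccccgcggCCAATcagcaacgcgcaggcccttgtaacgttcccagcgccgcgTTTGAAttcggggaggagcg
Cdc20: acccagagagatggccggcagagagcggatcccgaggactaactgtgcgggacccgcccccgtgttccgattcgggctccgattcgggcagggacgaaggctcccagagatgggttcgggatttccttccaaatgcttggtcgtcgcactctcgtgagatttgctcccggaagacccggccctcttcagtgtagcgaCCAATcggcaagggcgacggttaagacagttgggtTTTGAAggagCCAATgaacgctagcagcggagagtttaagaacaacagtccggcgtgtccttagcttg
Mcm3: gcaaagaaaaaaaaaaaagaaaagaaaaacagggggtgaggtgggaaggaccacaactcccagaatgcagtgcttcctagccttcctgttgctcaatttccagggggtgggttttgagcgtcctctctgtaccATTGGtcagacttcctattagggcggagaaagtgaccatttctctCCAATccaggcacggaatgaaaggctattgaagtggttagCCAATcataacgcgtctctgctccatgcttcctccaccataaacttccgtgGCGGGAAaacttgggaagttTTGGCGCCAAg
Mcm6: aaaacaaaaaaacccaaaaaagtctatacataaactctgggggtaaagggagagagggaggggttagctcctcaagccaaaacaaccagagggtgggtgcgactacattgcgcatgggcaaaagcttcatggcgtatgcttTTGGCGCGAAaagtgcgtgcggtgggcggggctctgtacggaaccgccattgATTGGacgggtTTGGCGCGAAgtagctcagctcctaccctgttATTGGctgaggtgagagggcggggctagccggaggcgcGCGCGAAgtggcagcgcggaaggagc
Pcna: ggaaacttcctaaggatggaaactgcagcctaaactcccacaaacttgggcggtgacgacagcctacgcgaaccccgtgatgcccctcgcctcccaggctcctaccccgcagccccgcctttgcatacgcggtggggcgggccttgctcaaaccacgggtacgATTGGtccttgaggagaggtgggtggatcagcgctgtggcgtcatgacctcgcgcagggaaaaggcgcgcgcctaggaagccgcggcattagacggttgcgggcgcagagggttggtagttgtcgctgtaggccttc

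A CHR match stood in 18 of 25 mitotic windows (72.0%) and in 3 of 17 G1/S and S-phase windows (17.6%), against 19.4% of the windows of all 27025 genes. Counting only matches that begin within 50 bases of the start, the CHR was in 16 of 25 mitotic windows (64.0%), 1 of 17 G1/S and S-phase windows (5.88%) and 5.29% of all windows. E2F matches showed the opposite split, with 10 of 17 G1/S and S-phase windows (58.8%), 3 of 25 mitotic windows (12.0%) and 9.69% of all. CCAAT was common in both, in 20 of 25 mitotic windows (80.0%) and 10 of 17 G1/S and S-phase windows (58.8%), and in 37.9% of all. A CHR and a CCAAT box occurred together in 17 of 25 mitotic windows (68.0%) and in 7.70% of all. In 3 member windows matches of 2 motifs overlapped. Bub1, Plk1 and Cdc20 each hold 1 CHR, Mcm3 holds 3 E2F matches and Mcm6 holds 5, some of them overlapping on opposite strands. A match is a string of letters and no measured binding, and the factors were not assayed in these libraries.

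**Figure D2:**
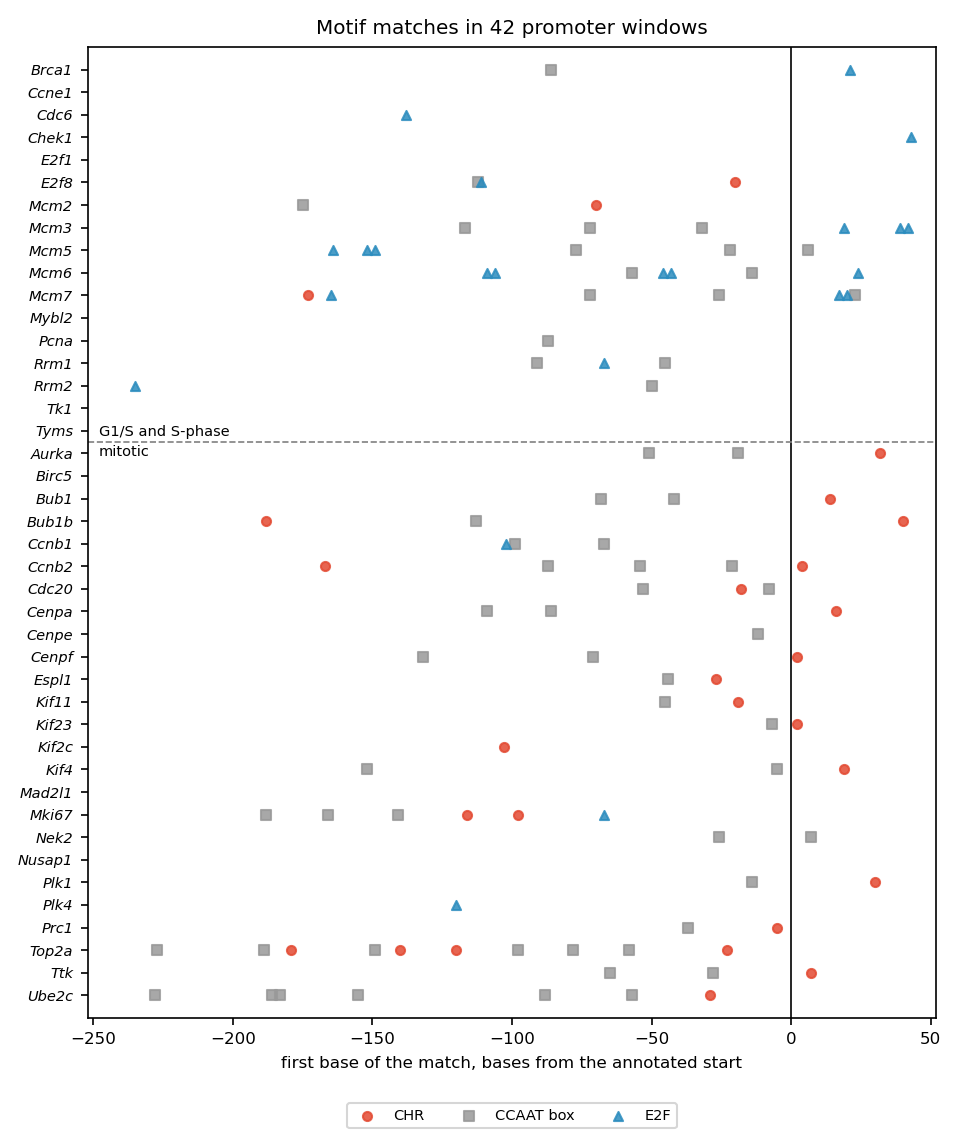
Place of each CHR, CCAAT and E2F match (x axis, first base in bases from the annotated start, marked by the vertical line) in the windows of the 42 genes (y axis). CHR matches cluster around the start in the mitotic genes, and most E2F matches lie in the G1/S and S-phase genes above the dashed line.

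Of the 5 G1/S regulators, 4 were lower in every tissue and 1 was not called in any. Ccne1 encodes cyclin E, which activates the kinase that starts S phase. Its level was 2.98 and 2.61 CPM in adipose, 0.816 and 1.19 CPM in muscle, 1.19 and 0.717 CPM in pancreas and 48.0 and 51.8 CPM in MEFs, so the MEF libraries lay above all FAP+ libraries and adipose above the other tissues. The log2 difference from MEFs was -4.17 ± 0.34 (SE) in adipose, -5.59 ± 0.37 in muscle and -5.69 ± 0.37 in pancreas (edgeR adjusted p = 9.81e-05, 6.16e-05 and 6.03e-05). Ccne2, the other cyclin E gene, had 0.854 to 2.24 CPM in the FAP+ libraries and 21.5 and 18.0 CPM in MEFs. Mybl2, which encodes B-Myb, had 0.603 to 1.82 CPM against 11.6 and 15.3 CPM. E2f8, an atypical E2F that represses transcription, had 0.157 to 0.439 CPM against 6.01 and 6.46 CPM, and its second pancreas library rests on 3 fragments.

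E2f1, the activator that drives S-phase genes, was the only member not called lower than MEFs. It had 11.3 and 11.9 CPM in adipose, 17.7 and 16.4 CPM in muscle, 11.5 and 13.3 CPM in pancreas and 15.4 and 19.7 CPM in MEFs. Muscle and MEFs overlapped, and adipose and pancreas lay below both MEF libraries. The log2 difference was -0.60 ± 0.25 in adipose (edgeR adjusted p = 0.0775), -0.04 ± 0.25 in muscle (adjusted p = 0.908) and -0.50 ± 0.25 in pancreas (adjusted p = 0.139). In FPKM, which allows genes to be ordered within a library, E2f1 took ranks 2 to 8 of the 52 in the FAP+ libraries and ranks 41 and 36 in MEFs. On the FPKM scale limma called E2f1 lower in adipose (log2 difference -1.48 with a pseudocount of 1, adjusted p = 0.012), and so did edgeR on recovered whole reads (-0.93, adjusted p = 0.0262).

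All 10 genes of origin licensing and the replication fork were lower in every tissue, with median log2 differences of -2.68 in adipose, -3.44 in muscle and -3.41 in pancreas. Cdc6, which loads the replicative helicase onto origins, had 2.18 to 7.78 CPM in the FAP+ libraries and 31.9 and 28.3 CPM in MEFs. Mcm2 to Mcm7 encode the helicase ring itself. Mcm6, whose E2F matches are printed above, had 20.9 and 21.1 CPM in adipose, 15.5 and 14.2 CPM in muscle, 18.4 and 19.6 CPM in pancreas and 155 and 130.0 CPM in MEFs. Both MEF libraries lay far above all FAP+ libraries, and the log2 difference was -2.76 ± 0.24, -3.26 ± 0.25 and -2.91 ± 0.24 (edgeR adjusted p = 0.000135, 9.01e-05 and 0.000125). Mcm3 was 5.16-, 9.99- and 7.72-fold lower in adipose, muscle and pancreas, and Mcm5 was 17.9-, 17.8- and 11.5-fold lower. Mcm2, Mcm4 and Mcm7 were 5.94- to 17.7-fold lower over the 3 tissues. The ring's subunits thus differed from MEFs by unequal amounts, from -2.37 for Mcm3 in adipose to -4.16 for Mcm5 in adipose.

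Gins1 and Gins2 encode parts of the complex that joins the helicase at the fork. Gins1 was 9.66-, 14.0- and 12.7-fold lower. Gins2 had 20.6 and 7.44 CPM in adipose, 4.82 and 3.67 CPM in muscle, 4.91 and 4.08 CPM in pancreas and 45.4 and 55.3 CPM in MEFs. In CPM the first adipose library lay far above the other 5, while in FPKM the adipose libraries had 11.6 and 7.91. Its log2 difference in adipose was -1.85 ± 0.46 (edgeR adjusted p = 0.0124). It was -2.75 without adipose library 1, -1.30 without adipose library 2 and -1.70 without MEF library 2, where the call was lost. With recovered reads it was -2.98, and in limma on FPKM with a pseudocount of 1 it was -3.02. With only the groups compared in the fit the call was also lost (-1.73, edgeR adjusted p = 0.0623). Gins2 shares up to 2758 exon bases with Gse1 in GENCODE M21, so reads of the 2 genes may be split.

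Pcna, the sliding clamp of DNA polymerases that also serves repair, differed least among the called licensing and fork genes. It had 65.1 and 78.2 CPM in adipose, 46.3 and 46.2 CPM in muscle, 25.6 and 35.8 CPM in pancreas and 123 and 138 CPM in MEFs. No FAP+ library reached the MEFs, and in CPM the tissues lay in the order adipose, muscle, pancreas without overlap. In FPKM this order did not hold. There adipose library 1 (30.3) lay below both muscle libraries (40.9 and 42.7) and below pancreas library 2 (37.7). The log2 difference was -0.86 ± 0.26 in adipose (edgeR adjusted p = 0.0272), -1.49 ± 0.27 in muscle (0.00336) and -2.09 ± 0.27 in pancreas (0.000844). The adipose call was lost under 7 of the 19 alternatives. Annotated pseudogenes of Pcna, Tyms, Ccnb1, Ccnb2 and Kif4 make the counts of these genes uncertain.

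The 4 genes of nucleotide supply were lower in every tissue but over a wide range. Rrm2 is the cell-cycle-limited subunit of ribonucleotide reductase, which makes deoxynucleotides, and Rrm1 is its large partner. Rrm2 had 2.40 and 5.20 CPM in adipose, 2.71 and 3.28 CPM in muscle, 0.643 and 1.86 CPM in pancreas and 204 and 204 CPM in MEFs. It was 52.6-, 68.4- and 163-fold lower, the largest difference among the G1/S and S-phase genes in each tissue (log2 -5.72 ± 0.57, -6.10 ± 0.58 and -7.35 ± 0.62, edgeR adjusted p = 0.000234, 0.000222 and 0.000136). Rrm1 was 9.97-, 11.3- and 13.1-fold lower, with 10.4 to 18.7 CPM in the FAP+ libraries and 184 and 141 CPM in MEFs.

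Tyms, thymidylate synthase, was among the members closest to MEFs. Its level was 29.1 and 18.3 CPM in adipose, 29.6 and 32.5 CPM in muscle, 40.4 and 27.4 CPM in pancreas and 60.8 and 77.5 CPM in MEFs. The FAP+ and MEF libraries did not overlap, and the log2 difference was -1.55 ± 0.33, -1.16 ± 0.32 and -1.03 ± 0.32 (edgeR adjusted p = 0.00643, 0.0223 and 0.0349). Under leave-one-out the call was lost 3 times in muscle and 6 times in pancreas. Tk1, the salvage enzyme thymidine kinase, was 12.0-, 16.5- and 27.8-fold lower. Of the S-phase checkpoint and repair genes, Brca1 had 0.393 to 0.825 CPM in the FAP+ libraries and 6.96 and 8.66 CPM in MEFs, and the checkpoint kinase gene Chek1 had 0.322 to 0.869 CPM against 10.3 and 7.61 CPM.

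The 8 genes of mitotic entry were lower in each tissue, with medians of -4.70 in adipose, -4.99 in muscle and -5.11 in pancreas. Plk1, a kinase that acts from mitotic entry to exit and whose CHR is printed above, had 3.44 and 4.44 CPM in adipose, 4.04 and 2.97 CPM in muscle, 2.83 and 3.52 CPM in pancreas and 109.8 and 111 CPM in MEFs. The 6 FAP+ libraries lay within a narrow range, and the log2 difference was -4.79 ± 0.31, -4.99 ± 0.32 and -5.12 ± 0.32 (edgeR adjusted p = 4.52e-05, 5.60e-05 and 5.13e-05). Ccnb1, the cyclin B that drives entry into mitosis, had 1.77 and 3.01 CPM in adipose, 2.84 and 1.71 CPM in muscle, 0.331 and 3.18 CPM in pancreas and 113 and 102 CPM in MEFs. The first pancreas library was the lowest and the second the highest of the FAP+ libraries. Ccnb2, the other cyclin B gene here, was 10.5-, 24.2- and 23.9-fold lower. Ccna2, the cyclin A of S phase and G2, was 24.5-, 32.0- and 34.3-fold lower.

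Aurka, the kinase of the spindle poles, had 1.06 to 2.68 CPM in the FAP+ libraries and 78.7 and 80.8 CPM in MEFs, and was 48.3-, 37.4- and 42.5-fold lower. Nek2, a centrosome kinase, had 0.321 to 2.31 CPM against 34.9 and 29.8 CPM. Cdc25c, the phosphatase that activates the cyclin B kinase, had 0.0915 to 0.610 CPM against 19.3 and 17.8 CPM, and its first pancreas library rests on 2 fragments. Foxm1, the activator of mitotic genes, was the least different of the class at 5.22-, 12.0- and 12.9-fold lower. Its first adipose library had 8.98 CPM and the other FAP+ libraries 1.91 to 3.72 CPM, against 33.8 and 32.0 CPM in MEFs. In FPKM the adipose libraries lay closer together, at 1.21 and 0.940.

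The 4 spindle checkpoint genes and the 5 kinetochore and centromere genes were lower in each tissue. Bub1 encodes a checkpoint kinase at kinetochores. It had 0.752 and 1.26 CPM in adipose, 1.31 and 0.549 CPM in muscle, 0.223 and 0.292 CPM in pancreas and 68.2 and 38.5 CPM in MEFs, with both pancreas libraries below the other FAP+ libraries. The log2 difference was -5.68 ± 0.54, -5.85 ± 0.55 and -7.65 ± 0.62 (edgeR adjusted p = 0.000193, 0.000208 and 0.000115). In pancreas this was 201-fold, but the 2 libraries rest on 4 and 6 fragments, so its size is uncertain. Bub1b, Mad2l1 and Ttk, 3 further checkpoint genes, were 12.2- to 39.1-fold lower over the 3 tissues. Birc5, survivin of the chromosomal passenger complex, had 18.0 and 16.0 CPM in adipose, 10.8 and 5.89 CPM in muscle, 2.47 and 8.22 CPM in pancreas and 316 and 421 CPM in MEFs. In CPM adipose lay above muscle and pancreas for Birc5. In FPKM adipose library 1 (2.41) lay below muscle library 1 (2.74) and pancreas library 2 (2.49). Birc5 was 21.7-, 44.4- and 69.1-fold lower than in MEFs (edgeR adjusted p = 0.000924, 0.000514 and 0.000371).

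Its partner kinase Aurkb was 14.1-, 29.3- and 40.7-fold lower. Cenpa, the histone variant that marks centromeres, was 32.6-, 29.1- and 29.4-fold lower, and thus by much the same amount in each tissue. Cenpf, a kinetochore protein, differed less, at 9.48-, 8.21- and 10.4-fold. Cenpe, a kinetochore motor, had the second pancreas library at 4.12 CPM and the first at 0.568 CPM, with 38.1 and 58.3 CPM in MEFs.

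All 9 genes of spindle, motors and cytokinesis were lower, with medians of -4.26 in adipose, -4.64 in muscle and -4.77 in pancreas. Kif2c, a kinesin that takes microtubules apart, had 0.548 and 1.54 CPM in adipose, 1.40 and 1.21 CPM in muscle, 0.601 and 1.57 CPM in pancreas and 64.2 and 56.1 CPM in MEFs. It was 54.6-, 46.2- and 54.8-fold lower (edgeR adjusted p = 0.000232, 0.000297 and 0.000267). Kif11, the motor that separates spindle poles, was 16.8-, 25.2- and 25.3-fold lower, and Kif23, a motor of the central spindle, was 19.2-, 29.3- and 35.7-fold lower. Tpx2, which activates Aurora A on the spindle, had 7.02 to 24.3 CPM in the FAP+ libraries and 484 and 390.3 CPM in MEFs. Kif20a, a cytokinesis kinesin, had 18.2 to 30.7 CPM against 402 and 331 CPM. Kif20a shares up to 977 exon bases with Cdc23, Kif4 shares 683 with Pdzd11 and Prc1 shares 670 with Rccd1, so their counts may hold reads of these neighbours. Ccna2, Ccne2, E2f8, Mcm7 and Nek2 share 201 to 336 exon bases with a neighbour. Prc1, the microtubule bundler of the midzone, was 19.7-, 24.9- and 27.2-fold lower, and Plk4, the kinase of centriole duplication, 11.2-, 8.92- and 11.7-fold. Kif4, a motor on chromosome arms, was 27.2-, 25.6- and 53.6-fold lower, and the spindle protein gene Nusap1 11.4-, 14.2- and 21.1-fold.

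Of the anaphase genes, Cdc20, the activator of the anaphase-promoting complex, had 12.2 and 8.60 CPM in adipose, 6.61 and 3.96 CPM in muscle, 2.67 and 8.03 CPM in pancreas and 195 and 219.6 CPM in MEFs. It was 20.0-, 39.4- and 38.7-fold lower (edgeR adjusted p = 0.000743, 0.000415 and 0.000429). Ube2c, the ubiquitin-conjugating enzyme of the same complex, was 34.1-, 36.6- and 64.1-fold lower. Espl1, the separase that cuts cohesin, was the mitotic member closest to MEFs in each tissue, at 3.82-, 5.98- and 9.11-fold lower. Mki67, which encodes the proliferation marker Ki-67, had 15.4 and 12.4 CPM in adipose, 10.4 and 7.66 CPM in muscle, 2.96 and 9.47 CPM in pancreas and 97.2 and 109 CPM in MEFs. Its log2 difference was -2.90 ± 0.50, -3.51 ± 0.52 and -4.05 ± 0.53 (edgeR adjusted p = 0.00278, 0.00147 and 0.000904). Top2a, the topoisomerase that untangles chromosomes, was 13.6-, 13.5- and 26.9-fold lower.

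**Figure D3:**
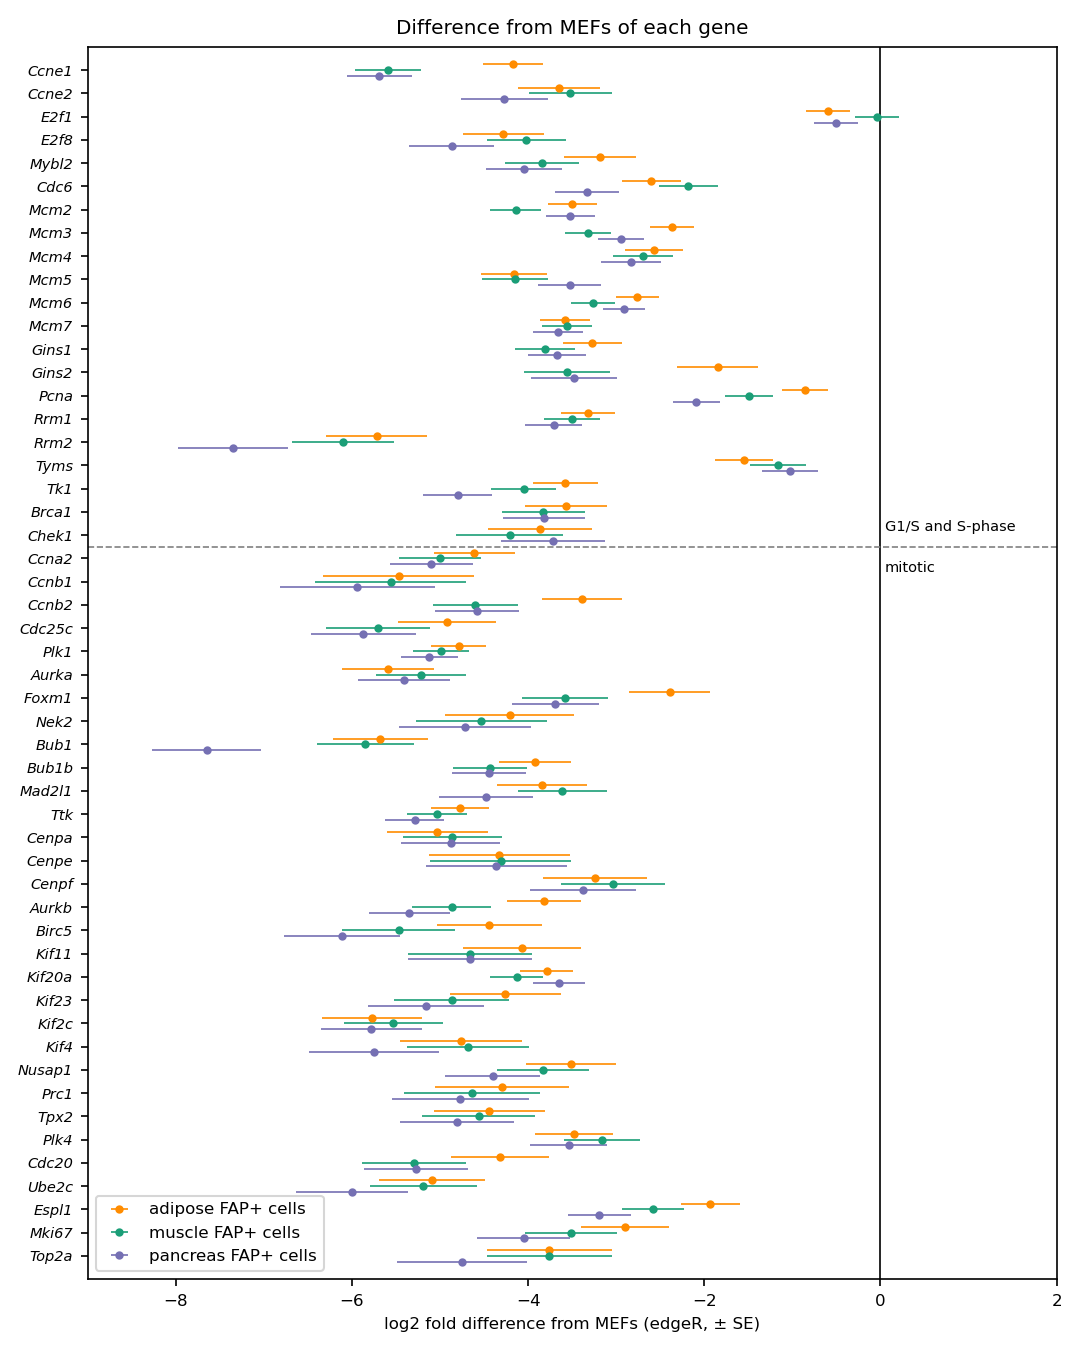
Log2 difference from MEFs of each of the 52 genes in adipose, muscle and pancreas FAP+ cells, with 1 standard error on each side from edgeR. Only E2f1 lies near 0, and Pcna and Tyms come next. Rrm2 and Bub1 in pancreas lie furthest to the left at -7.35 and -7.65, where Bub1 rests on 4 and 6 fragments.

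Levels per length showed a shift in the make-up of the set. The 21 G1/S and S-phase genes summed to 71.2 and 132 FPKM in adipose, 95.0 and 95.7 FPKM in muscle, 77.8 and 98.4 FPKM in pancreas and 1182 and 1116 FPKM in MEFs. The 31 mitotic genes summed to 24.1 and 54.1 FPKM, 40.2 and 34.5 FPKM, 18.7 and 51.7 FPKM, and 1648 and 1543 FPKM in the same order. Each FAP+ library thus had more FPKM in its G1/S and S-phase genes than in its mitotic genes, and each MEF library had less. The ratio of the sums was 1.90 to 4.16 in the FAP+ libraries and 0.718 and 0.723 in MEFs. Without Pcna, Tyms and E2f1, left out after their values were seen, the ratio was 0.943 to 2.22 in the FAP+ libraries and 0.593 and 0.583 in MEFs. No test was made of these sums.

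Pcna was the member with the most FPKM in each of the 6 FAP+ libraries, with 24.4 to 68.5 FPKM, and it made up 25.1% to 36.7% of the summed FPKM of all members there. In MEFs it had 179 and 186 FPKM, took rank 3, and made up 6.32% and 6.98%. The MEF lists were led by Cdc20 (200.1 and 209 FPKM) and Ube2c (188 and 228 FPKM). Below Pcna, Mcm6 took ranks 2 to 4 in all 6 FAP+ libraries, with 4.23 to 8.96 FPKM. Tyms took ranks 3 to 17 in the FAP+ libraries and ranks 37 and 33 in MEFs, while Rrm2 took ranks 18 to 32 and ranks 4 and 6. RNA was amplified from the poly(A) tail, which can shift FPKM between genes of different length.

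**Figure D4:**
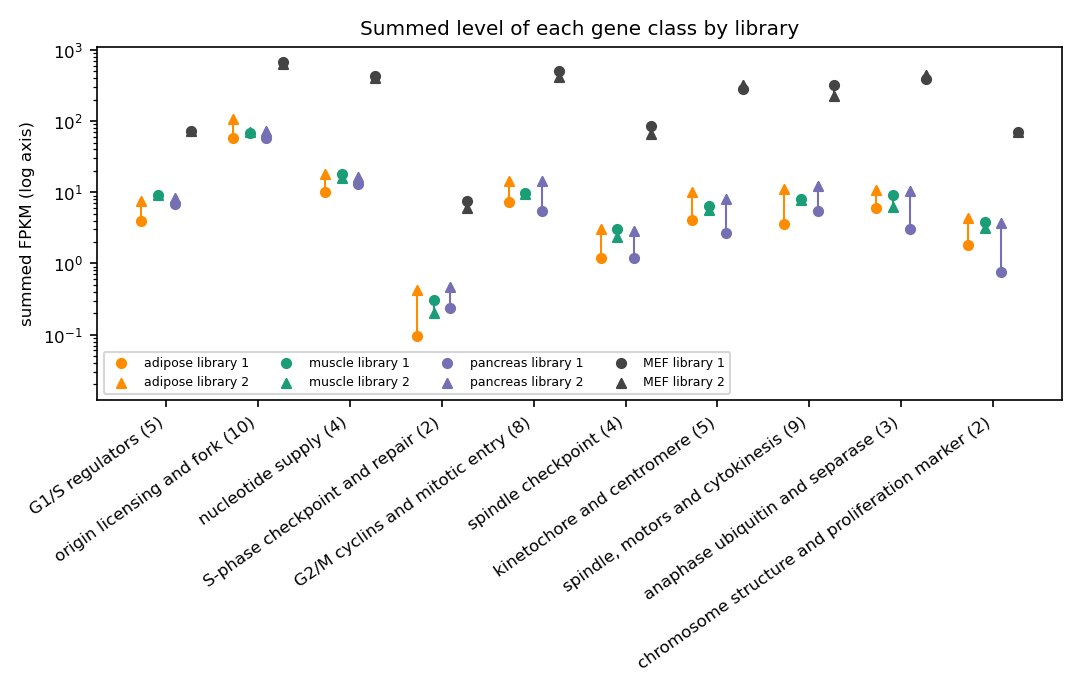
Summed FPKM (log axis) of the members of each of the 10 classes, with the number of genes in parentheses, in each library; lines join the 2 libraries of a group. Origin licensing, which has 10 genes, is the highest class in all FAP+ libraries and also in both MEF libraries. The gap to MEFs is narrower in this class than in the mitotic classes. The 2 adipose and the 2 pancreas libraries differ more than the 2 muscle libraries.

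Between tissues, few members differed beyond the spread of the libraries. Some members entered these tests only through their level in MEFs: with only the 2 groups compared in the fit, E2f8 fell below the filter in each pair, Bub1 in both pairs with pancreas and Cdc25c in pancreas against muscle. That left 51 members for muscle against adipose, 50 for pancreas against adipose and 49 for pancreas against muscle. Of these, 0 were called by edgeR and 5, 7 and 7 had an unadjusted p under 0.05. Over all genes, the same fits called 74 of 13801, 305 of 13747 and 1752 of 13574. The share of all genes at that unadjusted p was not taken in these fits. Muscle against adipose gave 0 calls among the 52 members, where 6.12% of all genes were called by edgeR. An unadjusted p under 0.05 was reached by 8 members and by 3564 of all 14847 genes. DESeq2 called 3 members, against 1937 of 22558 genes, and limma on FPKM called 0 members. Pancreas against muscle also gave 0 calls, where 3.67% of all genes were called. That unadjusted p was reached by 4 members and by 2078 of all 14847 genes. DESeq2 called 0 members, against 1000 of 22558 genes, and limma also called 0 members. Pancreas against adipose gave 2 calls, where 9.05% of all genes were called. Both were lower in pancreas, where 5.73% of all genes were lower. That unadjusted p was reached by 13 members and by 3900 of all 14847 genes. DESeq2 called 9 members, against 2304 of 22558 genes. The 2 edgeR calls were Pcna, at a mean of 30.7 CPM against 71.6 CPM (log2 -1.22 ± 0.26, edgeR adjusted p = 0.0306), and Ccne1, at 0.956 against 2.79 CPM (log2 -1.52 ± 0.34, adjusted p = 0.0346). These 2 of 52 members are no larger a share than that of all genes. Without adipose library 1 the members' median log2 difference was -0.67, with all genes at 0.03. Without adipose library 2 it was -0.19, with all genes at 0.08. Both calls were lost with any 1 library of another group left out.

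The members' median log2 difference was -0.32 for muscle against adipose, -0.55 for pancreas against adipose and -0.20 for pancreas against muscle, with medians of all genes of -0.01, 0.00 and 0.00. On the FPKM scale with a pseudocount of 1 the first 2 medians were 0.05 and -0.01, with all genes at 0.07 and 0.10. The sign of the median for muscle against adipose thus depends on the scaling. Measured from the median of all genes, the members lay at -0.31 and -0.55 in edgeR and at -0.02 and -0.11 on the FPKM scale. The size of this gap thus depends on the scaling. The medians also rest on single libraries. The median for muscle against adipose was 0.18 without adipose library 2 and that for pancreas against muscle 0.04 without pancreas library 1. Without pancreas library 2 the medians were -0.87 against muscle and -1.32 against adipose, and for the latter the median was -0.19 without pancreas library 1 and -0.19 without adipose library 2. Among the members not called, Aurkb was at -1.53 ± 0.42 and Gins2 at -1.63 ± 0.47 in pancreas against adipose (edgeR adjusted p = 0.0636 and 0.0709). Bub1 was at -1.80 ± 0.63 in pancreas against muscle (adjusted p = 0.224). With 2 libraries a group, differences of this size were not separated from the spread.

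The 2 pancreas libraries differed from each other in mitotic genes far more than in S-phase genes. All 31 mitotic members were higher in pancreas library 2 than in library 1, by a median ratio of 2.04 on CPM plus 0.5, while 49.6% of all genes were higher in library 2 and their median ratio was 1.00. Over 2-fold were 16 of the 31, against 1.13% of all genes. Of the 21 G1/S and S-phase members 11 were higher in library 2, by a median ratio of 1.06, and the 6 Mcm2 to Mcm7 genes had a median ratio of 0.953. The widest gaps were in Top2a (1.75 and 9.72 CPM), Ccnb1 (0.331 and 3.18 CPM) and Cenpe (0.568 and 4.12 CPM). In FPKM the same 31 were higher in library 2, by a median ratio of 1.77, against 63.5% of all genes and a median ratio of 1.08. On that scale 15 of the 21 G1/S and S-phase members were higher in library 2, by a median ratio of 1.11. These 2 libraries also differed in the epithelial and acinar sums given above, which were higher in library 1; their part was not tested. Against MEFs, the median of the 31 mitotic genes was -4.81 with both pancreas libraries, -4.18 without library 1 and -5.97 without library 2, with all 31 lower each time.

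Adipose library 2 was higher than library 1 for 23 of 31 mitotic members in CPM, by a median ratio of 1.51, against 7723 of all 14847 genes and a median ratio of 1.03, and for 30 of 31 in FPKM. On the FPKM scale 77.7% of all genes were higher in adipose library 2, so that count moves with the scaling of the first library. Some marker sums were also higher in adipose library 2 than in library 1, at 43.5 against 23.0 FPKM for endothelial genes. They were 26.4 against 7.70 FPKM for pericyte and smooth muscle and 11.5 against 0.652 FPKM for erythroid genes. Leukocyte, adipocyte and fibroblast sums were higher too, the last at 9088 against 5732 FPKM. Lower in library 2 were the epithelial (1.62 against 3.42 FPKM), acinar (1.16 against 2.61 FPKM), T and B cell, satellite and muscle, and Schwann sums. The part of these cells was not tested. Against MEFs, the median over all 52 members in adipose was -3.59 without library 1 and -4.19 without library 2. In muscle 7 of 31 mitotic members, and in MEFs 12 of 31, were higher in library 2, with median ratios of 0.797 and 0.909, against 52.1% and 43.9% of all genes and median ratios of 1.01 and 0.976.

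**Figure D5:**
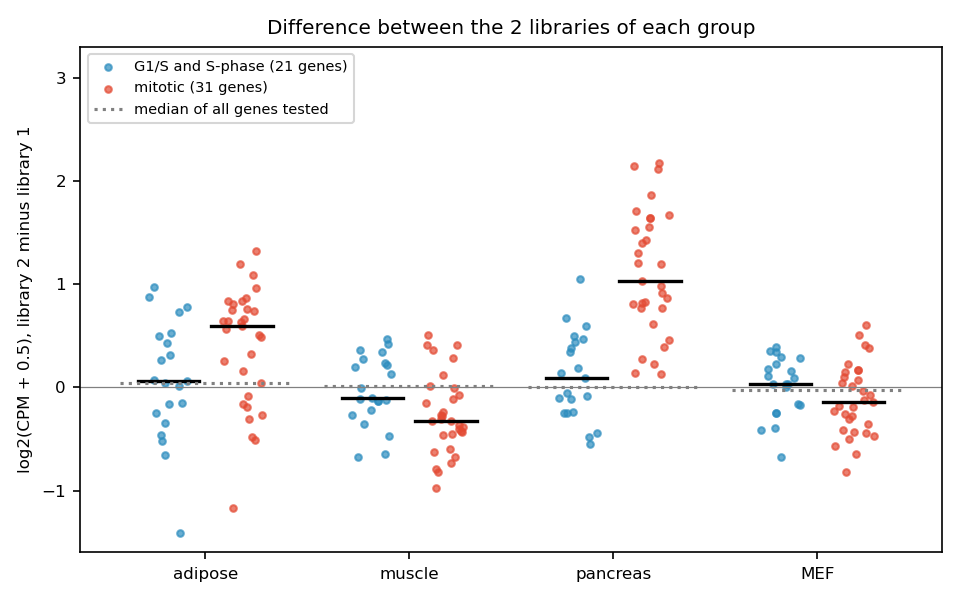
Difference between the 2 libraries of each group, library 2 minus library 1 on log2(CPM + 0.5), with 1 point per gene; black bars are medians and the dotted line is the median of all genes tested. In pancreas the 31 mitotic genes all lie above 0 while the 21 G1/S and S-phase genes spread around it.

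The wider machinery was listed by role outside the 52 genes. Of all genes tested 23.2%, 20.0% and 19.4% were lower than MEFs in adipose, muscle and pancreas. Of 47 other replication genes, 42 (89.4%) were lower in each tissue and 0 higher, with medians of -2.50, -2.33 and -2.43 in adipose, muscle and pancreas. Rfc2, a subunit of the clamp loader, was 3.11-, 3.12- and 2.90-fold lower. Pold2, a subunit of DNA polymerase delta, was lower in adipose and muscle (log2 -0.95 and -0.85, edgeR adjusted p = 0.0243 and 0.0391), while in pancreas it was at -0.73 (adjusted p = 0.066). Of 19 alternatives, 3 ended the adipose call, 9 ended the muscle call and 6 called it lower in pancreas, so no difference between tissues can be read from it. Of 56 other mitotic genes, 52 (92.9%), 54 (96.4%) and 55 (98.2%) were lower. Cks1b, a subunit of cyclin-dependent kinases, was lower in muscle and pancreas (log2 -2.42 and -2.39) and at -1.21 in adipose (edgeR adjusted p = 0.0578). In adipose 10 of 19 alternatives called it lower, among them those without adipose library 1 (-2.18) and without adipose library 2 (-0.64). The muscle call was lost without muscle library 2 (adjusted p = 0.0529) and the pancreas call without pancreas library 2 (0.0549).

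Pttg1, the securin that holds separase inactive until anaphase, was the only other mitotic gene that was higher in a tissue than in MEFs. It had 389 and 95.5 CPM in adipose, 89.0 and 77.7 CPM in muscle, 96.9 and 79.2 CPM in pancreas and 30.4 and 42.8 CPM in MEFs, so every FAP+ library lay above both MEF libraries. The log2 difference was 2.72 ± 0.60 in adipose (edgeR adjusted p = 0.00794), 1.19 ± 0.57 in muscle (0.129) and 1.27 ± 0.58 in pancreas (0.112). Without adipose library 1 it was 1.38, 1.17 and 1.26, with adjusted p = 0.00462, 0.00367 and 0.00273. Without MEF library 1 the adipose call was lost (2.46, adjusted p = 0.0713). Its target Espl1 was lower in each tissue, as given above.

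Of 16 pocket proteins, repressor E2Fs, their partners and MuvB core genes, 7 were lower in adipose (43.8%), 6 in muscle (37.5%) and 8 of the 16 in pancreas, and 0 were higher, with medians of -0.68, -0.73 and -0.93. These shares lie above those of all genes given before and below those of the other replication and mitotic genes, and the differences between the lists were not tested. Tfdp1, the dimer partner of E2Fs, had 6.19 and 30.0 CPM in adipose, 16.1 and 22.0 CPM in muscle, 22.5 and 24.8 CPM in pancreas and 135 and 116 CPM in MEFs. It was 6.92-, 6.60- and 5.32-fold lower (edgeR adjusted p = 0.00888, 0.0108 and 0.017). The muscle call was lost without MEF library 1 and without either muscle library, and the pancreas call without any 1 library of MEFs or pancreas (adjusted p up to 0.112) and in limma with a pseudocount of 0.1. In adipose the log2 difference was -2.07 without library 1 and -4.36 without library 2. Lin37, a MuvB subunit, had 20.9 and 4.38 CPM in adipose, 8.96 and 8.41 CPM in muscle, 13.9 and 9.76 CPM in pancreas and 8.27 and 8.72 CPM in MEFs, and was not called in any tissue with all libraries. Its adipose difference was 0.56 with both libraries, -0.95 without adipose library 1 (edgeR adjusted p = 0.0338) and 1.29 without adipose library 2 (adjusted p = 0.00403), each past the threshold, so its direction there rests on 1 library.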

How the data were processed

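RNA of 8 libraries was amplified with MessageAmp, which copies from the poly(A) tail, and sequenced, per the labels. The authors deposited 3 gene tables. Per the file headers, one holds bias-adjusted estimated counts of fragments, one the matching FPKM values and one RPKM values. Build mm9 and the tools HTSeq, edgeR, TopHat2 and Bowtie2, without versions, come from the submitters' processing notes. For the bias adjustment, no program is named in the sources used here. Each table has 8 columns matched to samples by name and 6 others that were not used here.

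The 52 members, the related lists and the markers were chosen with earlier results of these data known, so they give no independent support. Estimated counts were rounded, since the design had assumed counts. The quasi-likelihood test of edgeR 4.0.16 (R 4.3.3) was fitted once to all 8 libraries with TMM factors and filterByExpr, which left 14847 genes and 4 residual degrees of freedom. The common biological coefficient of variation was 33.2%. A call is an adjusted p (Benjamini-Hochberg, over all genes) below 0.05. The script was tested on simulated data. Values per library are CPM with these factors.

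Depth ranged from 15516319 to 27759399 fragments per library. Members under 20 fragments numbered 19 in pancreas library 1, 14 in adipose library 1, 2 to 9 in the other FAP+ libraries and 0 in MEFs, and 3 fragments was the floor. Amplified fragments are not independent molecules, so counting error understates the error. The RPKM steps gave whole reads for 20968 genes (within 0.01 of a whole number), 9496872 to 16807605 per library. They were used as an alternative, with 1641 genes lacking a usable step. Other alternatives were DESeq2 (1.42.0), limma (3.58.1) on log2 FPKM with pseudocounts of 1 and 0.1, RLE and upper quartile factors, no filter, a filter of 5 CPM, each library left out in turn, the replicate number as a block, and a fit of the compared groups alone.

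All members were named. Of each related list, the 2 genes with the highest mean FPKM and any gene called higher than MEFs were named, and of each marker list the gene with the highest FPKM. Promoters came from RefSeq (GRCm38.p6) and exon overlaps and pseudogene names from GENCODE M21, both of another build than the files. The published T-cell data named in the design text were not used here.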

Additional observations from a re-analysis of the deposited data

Results flagged for a closer look

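Both members called between tissues are listed because the difference of their effects against MEFs was itself past the threshold. Pcna, the DNA polymerase clamp, had a log2 difference of -1.22 in pancreas against adipose (edgeR adjusted p = 0.0306), and in CPM both pancreas libraries lay below both adipose libraries. In FPKM Pcna had 37.7 in pancreas library 2 and 30.3 in adipose library 1, so this order did not hold. Over its 19 alternatives the difference ran from -0.57 to -1.73 and the adjusted p from 0.000329 to 0.431. The call was lost under 11 of them. Ccne1, which encodes cyclin E, had a log2 difference of -1.52 in pancreas against adipose (edgeR adjusted p = 0.0346), again with both pancreas libraries below both adipose libraries. Over its alternatives the difference ran from -0.43 to -1.91 and the adjusted p from 0.0061 to 0.357, and the call was lost under 12 of 19. Beside these, the endothelial marker sum was higher in both adipose libraries (23.0 and 43.5 FPKM) than in pancreas (1.45 and 1.59 FPKM), and its part was not tested.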

How the results depend on the processing

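The counts of members lower than MEFs were 47 to 52 under every alternative in the 3 tissues. Between tissues the counts were small and moved. Muscle against adipose had 0 calls, and 3 with DESeq2, 1 with RLE factors, 2 with recovered reads and 0 to 4 with 1 library left out, where 4 came without adipose library 2. Pancreas against adipose had 2, and 9 with DESeq2, 8 with recovered reads, 1 with the replicate block, and 0 in the 3 limma fits on FPKM, with no filter and with only the groups compared, with 0 to 8 when 1 library was left out. In such fits the lone library of a group is assumed to vary like the other groups. Deviations of same-numbered libraries correlated at -0.156 to 0.347 between groups, with 0.347 for adipose and pancreas. Whether the replicate numbers pair the libraries was not tested. The block changed no other count.

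The size of the gap to MEFs depended on scaling. On CPM in place of FPKM, the G1/S and S-phase sum of MEFs was 6.35 times that of adipose (FPKM 11.3), 7.92 times that of muscle (12.1) and 8.74 times that of pancreas (13.0), and the mitotic sum 17.6 times that of adipose (40.8), 23.1 times that of muscle (42.7) and 26.5 times that of pancreas (45.3). Against MEFs, the median of all genes moved by over 0.1 with DESeq2 (0.38, 0.46 and 0.38 in adipose, muscle and pancreas), with no filter (0.23, 0.41 and 0.31), in limma at 1 FPKM or more (-0.93, -0.59 and -0.47), and in adipose in limma with a pseudocount of 0.1 (-0.19).

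E2f1 in muscle changed sign at 5 CPM (0.04), with recovered reads (0.09), with upper quartile factors (0.02), and with a library left out (-0.24 to 0.17), with no call. Lin37 changed sign in the limma fits, in adipose (-0.95 with a pseudocount of 0.1, otherwise -0.86), in muscle (-0.59 and -0.55) and in pancreas (-0.03). It also did so in adipose with recovered reads (-0.51) and with a library left out (-0.95 to 1.29), and in muscle with no filter (-0.01) and with a library left out (-0.03 to 0.09). The cause was not tested. Among the members, calls against MEFs were lost with a library left out for Gins2, Cenpe, Cenpf and Top2a, each under 1 such setting, and for Pcna and Tyms under several. Among the other named genes they were lost for Tfdp1 in muscle and pancreas, Pold2 in adipose and muscle, Cks1b in muscle and pancreas, and Pttg1 in adipose. Depth limits the lowest members, 19 of which had under 20 fragments in pancreas library 1.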
